A study of Mus musculus with 36 samples.

Results

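Long-term hematopoietic stem cells (LT-HSC) were compared with the multipotent progenitors termed HPC-1, both sorted from the bone marrow of *Apoe*-/-*Il27ra*-/- mice that had received angiotensin II (Ang II). The members were chosen by their labels: all libraries whose labels give this genotype and agent, 4 of LT-HSC and 4 of HPC-1, together 8 of the 36 libraries of the series. LT-HSC were sorted as lineage-negative Sca-1+ c-Kit+ cells carrying CD150 and lacking CD48, and HPC-1, which the labels call ST-HSC, as the same marrow fraction lacking CD150 and carrying CD48. All mice lacked *Apoe*, were fed a Western diet for 12 weeks from 8 weeks of age, and received Ang II at 800 ng per kg per min or phosphate-buffered saline (PBS) by pump in the last 2 weeks. In each sample 5000 cells were sorted for sequencing of total RNA. The groups set beside the 8 libraries were *Apoe*-/-*Il27ra*+/- mice with Ang II (4 libraries of each cell type), *Apoe*-/- mice with intact *Il27ra* and Ang II (2 of LT-HSC and 3 of HPC-1), and *Apoe*-/-*Il27ra*-/- mice with PBS (3 of each). The labels give neither the gender of the mice nor the number of animals behind a sample. The paper's legends give 3 mice for the knockout genotype, whereas the labels list 4 libraries of each cell type with Ang II, and how mice and libraries relate is not stated, so the p-values below measure the spread between these samples only.

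LT-HSC sit at the top of the hematopoietic hierarchy, divide rarely and can rebuild all blood lineages after transplantation, whereas HPC-1 are cycling progenitors with little long-term repopulating capacity and a leaning toward myeloid and lymphoid fates. Interleukin-27 signals through a receptor made of the specific chain encoded by *Il27ra* and the shared chain gp130, encoded by *Il6st*, and the pair relays the signal through Janus kinases to STAT transcription factors.

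The total count was 2487152, 2320769, 4526734 and 6618618 in LT-HSC replicates 1 to 4 and 3523523, 2857301, 3722262 and 5212330 in HPC-1 replicates 1 to 4. Levels are given in this replicate order throughout, as CPM, which are counts scaled to the library total with TMM normalization. Fold changes are LT-HSC over HPC-1 on the log2 scale, given ± standard error. Where a pair of fold changes and a pair of p-values stand together, the former of each is with all 8 libraries and the latter without LT-HSC replicate 2. Tests were made by edgeR's quasi-likelihood method over all genes that passed a filter on low counts, with Benjamini-Hochberg adjustment and a threshold of 0.05. A gene is said to be higher or lower only where it passed. Replicate 2, where no cell type is named, is that of LT-HSC.

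*Il27ra* (ENSMUSG00000005465, mm10 chr8:84030294-84042589), the targeted gene, kept counts in every knockout library. It stood at 16.3, 11.7, 16.2 and 19.3 in LT-HSC and 6.63, 5.91, 4.64 and 9.04 CPM in HPC-1, with no overlap between both groups. The difference passed the test (log2 fold change 1.27 ± 0.34 and 1.38 ± 0.36, adjusted p = 0.0103 and 0.00596), though it ended without HPC-1 replicate 3 (adjusted p = 0.0544). In mice with intact *Il27ra* given Ang II, the levels were 42.9 and 51.8 CPM in LT-HSC and 10.2, 8.88 and 6.07 CPM in HPC-1. Heterozygous mice had 30.2, 25.5, 27.1 and 32.8 CPM in LT-HSC and 5.46, 9.58, 14.3 and 16.5 CPM in HPC-1. The PBS-treated knockout had 9.42, 6.94 and 16.3 CPM in LT-HSC and 6.69, 11.1 and 8.35 CPM in HPC-1. In LT-HSC with Ang II the 4 knockout libraries lay below all libraries of the other genotypes, while in HPC-1 the genotypes overlapped. Counts per gene do not tell which exons the reads came from, so they do not show whether the transcripts of the knockout were intact.

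The genes of the sorted surface proteins followed the gates. *Slamf1*, which encodes CD150 (ENSMUSG00000015316, mm10 chr1:171767127-171801184), stood at 46.2, 20.7, 65.8 and 73.8 in LT-HSC and 2.31, 0, 0.579 and 1.57 CPM in HPC-1. Every LT-HSC library lay above every HPC-1 library (log2 fold change 5.43 ± 0.78 and 5.68 ± 0.77, adjusted p = 8.42e-05 and 2.49e-05). *Cd48* (ENSMUSG00000015355, mm10 chr1:171682009-171705258) stood at 1.11, 8.20, 0.409 and 0.826 in LT-HSC and 70.4, 81, 79.4 and 45.2 CPM in HPC-1. Here all LT-HSC libraries lay below all HPC-1 libraries, and replicate 2 was the highest of its group (log2 fold change −5.03 ± 0.93 and −6.47 ± 1.06, adjusted p = 0.000872 and 0.0002). *Kit*, the receptor for stem cell factor, stood at 1152, 754, 848 and 868 in LT-HSC and 824, 709, 648 and 639 CPM in HPC-1. *Ly6a*, which encodes Sca-1, had 16.3, 16, 13.1 and 9.36 in LT-HSC and 7.21, 14.6, 3.48 and 3.93 CPM in HPC-1. Both proteins were required by both gates, and neither gene passed the test (adjusted p = 0.23 and 0.251), the groups overlapping for each. A Y-linked covariate brought *Kit* to 0.0359, and limma-voom *Ly6a* to 0.0235. Of 11 genes of lineage proteins that the sort removed, 7 could be tested and 0 were called by edgeR or DESeq2, with 1 at an unadjusted p under 0.05. As lower, limma-voom called 2, and edgeR without replicate 2 also 2, *Itgam* and *Itgax*. Over the 7 tested the median log2 fold change was 0.77 with all libraries. Without replicate 2 it was −1.69, or −1.0 with genes at 0 in a group set at their bound.

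*Mpo*, the myeloperoxidase of granulocyte precursors (ENSMUSG00000009350, mm10 chr11:87793581-87804413), stood at 9.99, 1109.6, 1.02 and 20.1 in LT-HSC and 5169, 4512, 6035 and 3362 CPM in HPC-1. HPC-1 had high levels in all 4 libraries, 3 LT-HSC libraries were low and replicate 2 lay between them. The gene was lower in LT-HSC (log2 fold change −4.07 ± 1.33 and −8.80 ± 1.36, adjusted p = 0.0449 and 0.000114). With all libraries this call was weak: the adjusted p was 0.0521 to 0.123 when LT-HSC replicate 1, 3 or 4 or any HPC-1 replicate was left out, and 0.227 in a fit of the 8 libraries alone.

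LT-HSC replicate 2 stood apart from the rest of its group. Summed over 14 genes of maturing neutrophils, the level was 137, 10398, 122 and 117 in LT-HSC and 155, 184, 428 and 87.3 CPM in HPC-1, and all 14 were highest in replicate 2 among LT-HSC libraries. Its most abundant member was *S100a9*, a calcium-binding protein of neutrophil cytoplasm, at 11.1, 2182, 0.409 and 3.58 in LT-HSC and 7.79, 26.1, 82.9 and 0 CPM in HPC-1. *Ngp*, a granule protein, stood at 7.77, 2114, 3.27 and 2.48 in LT-HSC and 4.61, 22.3, 58.2 and 0 CPM in HPC-1. *Itgam*, which encodes CD11b and belongs to the lineage proteins used to remove mature cells, stood at 10.4, 313, 7.36 and 8.81 in LT-HSC and 55.4, 42.4, 45.2 and 52.7 CPM in HPC-1. These 3 genes were high in replicate 2 above all other libraries of both cell types.

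Genes of other mature cells were high in the same library. For 15 detected genes of red cell precursors the sum was 478, 4117, 854 and 1136 in LT-HSC and 326, 1010.4, 583 and 616 CPM in HPC-1. Among LT-HSC libraries 14 of them were highest in replicate 2, led by *Hba-a2*, an alpha-globin gene, with 995 CPM. *Hbb-bs*, a beta-globin gene, stood at 13.3, 711, 44.8 and 105 in LT-HSC and 6.06, 175, 47.2 and 38.1 CPM in HPC-1. For 12 genes of eosinophils, mast cells and basophils the sum was 12.9, 710.0, 10 and 2.07 in LT-HSC and 44.7, 83.1, 72.4 and 30.3 CPM in HPC-1, led in replicate 2 by the eosinophil granule protein *Prg2* with 285 CPM. For 14 genes of monocytes, macrophages and dendritic cells it was 43.3, 540.4, 42.5 and 41.2 in LT-HSC and 472, 391, 381 and 241 CPM in HPC-1, led there by *F13a1* with 270.2 CPM. The B lineage gave 15.9, 148, 14.3 and 12.4 in LT-HSC and 194, 168, 131 and 255 CPM in HPC-1, led in replicate 2 by the immunoglobulin light chain gene *Igkc* with 88.5 CPM, and *Ms4a1* was at 0 in all 8 libraries. The T and NK genes gave 12.6, 30.6, 15.5 and 10.9 in LT-HSC and 34.3, 35.5, 46.4 and 24.4 CPM in HPC-1, with *Ncr1* and *Gzma* at 0 in all 8. Replicate 2 was the highest LT-HSC library for each of these sums and lay above every HPC-1 library for neutrophil, red cell, eosinophil and monocyte genes, but within their range for B lineage and T and NK genes. The globin genes share reads between near-identical copies, so their single values are uncertain.

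In its median, replicate 2 lay between both groups. On a scale where the mean of HPC-1 is 0 and the mean of the other LT-HSC libraries is 1, it had a median position of 0.608 over the 1416 genes that were higher in LT-HSC without it and 0.366 over the 1442 that were lower. It lay beyond the other 3 toward HPC-1 for 78% and 82.5% of these genes. They were called from the other libraries, which by itself can place a library left out nearer to HPC-1. Left out in the same way, LT-HSC replicates 1, 3 and 4 had median positions of 1.055, 1.083 and 1.126 over higher genes. Over lower genes these were 1.08, 1.066 and 1.014. These libraries lay beyond the others toward HPC-1 for 16.1%, 13.2% and 8.06% of higher genes and 18%, 18.4% and 16.3% of lower genes. Their scale included replicate 2. The rank correlation (Spearman) of the levels of replicate 2 across all genes tested was 0.916 to 0.921 with the other LT-HSC libraries and 0.908 to 0.934 with HPC-1. The other LT-HSC libraries gave 0.955 to 0.978 among themselves and 0.888 to 0.932 with HPC-1. Replicate 2 was the highest LT-HSC library with HPC-1 replicates 1, 2 and 3. With HPC-1 replicate 4 it lay, at 0.918, below LT-HSC replicates 3 and 4 (0.929 and 0.932). Genes are not independent, so this correlation is a description. What part of the RNA of replicate 2 came from mature cells was not tested.

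**Figure D1:**
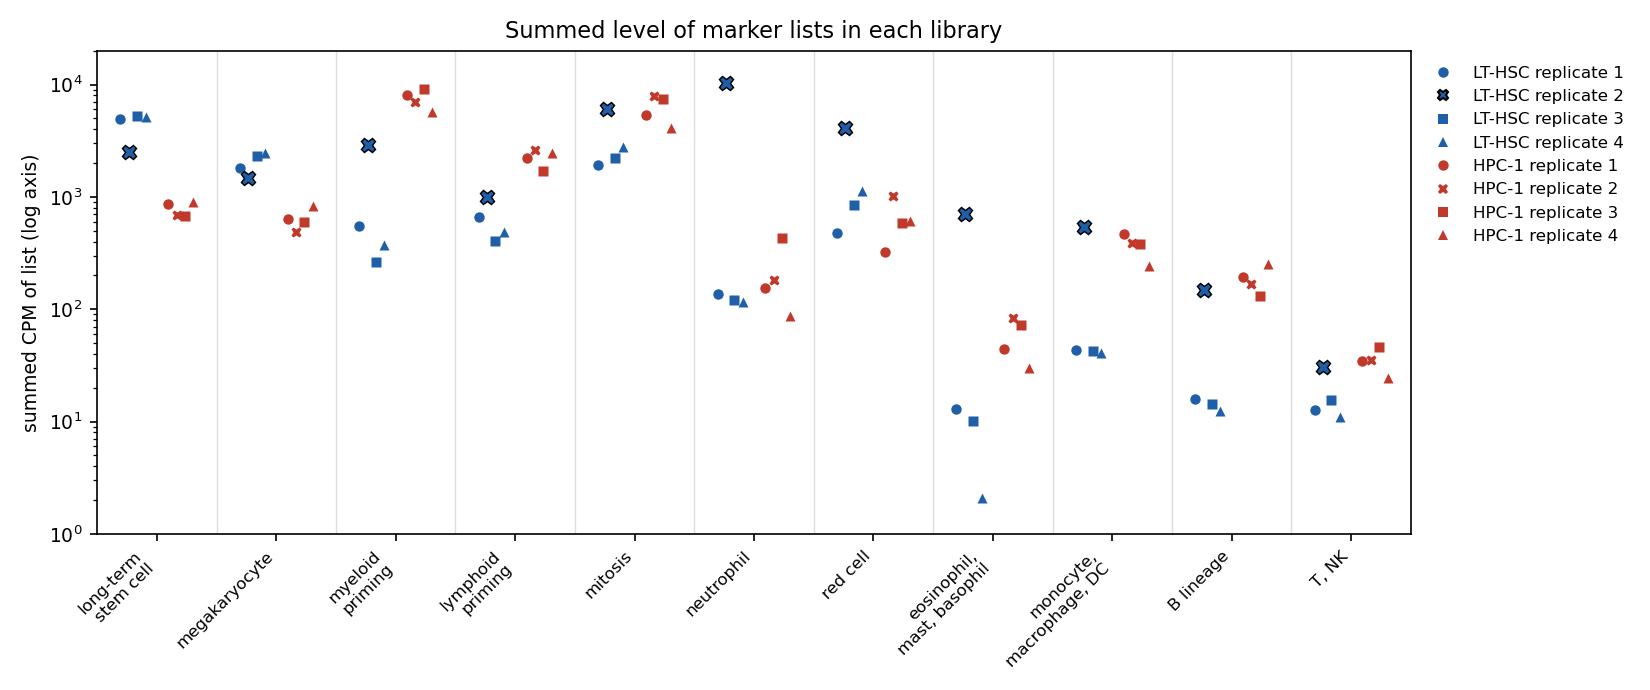
Summed level of 11 gene lists in each library, in CPM on a log axis, with blue symbols for LT-HSC and red symbols for HPC-1. LT-HSC replicate 2, outlined in black, lies at 10398 CPM for neutrophil genes against 117 to 137 CPM in the other LT-HSC libraries, and below them for long-term stem cell genes.

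Across the transcriptome, 1269 genes were higher in LT-HSC (7.04% of 18013 tested) and 988 were lower (5.48%). Without replicate 2 the counts were 1416 (7.87% of 17985) and 1442 (8.02%). Counts given for gene lists are to be read against these shares. Both fits shared 1187 higher and 923 lower genes, 229 higher and 519 lower genes were called only without replicate 2, and 82 and 65 only with it. The median log2 fold change of the higher genes was 1.97, that of the lower genes −0.83 and that of all genes tested 0.06. Without replicate 2 these were 1.92, −1.0 and 0.01. The lower genes were the more abundant, with a median of 86.3 CPM against 22.2, and had a median standard error of 0.22 against 0.47. Values did not overlap between both groups, LT-HSC above, for 1942 genes (10.8%), and LT-HSC below for 1444 (8.02%). In sorted bulk samples, fewer cells that express a gene and less RNA per cell cannot be told apart. The scaling moved the median of all genes from 0.056 with TMM to 0.103 with upper-quartile and 0.128 with DESeq2 size factors.

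The counts rested on single libraries in part. Leaving out LT-HSC replicate 1 gave 1460 calls, LT-HSC replicate 4 1476 and HPC-1 replicate 3 1270, against 2257 with all libraries. Most of this loss was in lower genes, of which 462, 555 and 496 were called without LT-HSC replicates 1, 3 and 4 and 635 and 463 without HPC-1 replicates 2 and 3. Higher genes numbered 807 without HPC-1 replicate 3. With sample weights in limma-voom, which can give a deviant library less weight, 2788 genes were higher and 2502 lower. The gene of fibronectin, *Fn1*, was the only call whose direction turned without replicate 2. It stood at 10.4, 573, 9.41 and 10.9 in LT-HSC and 11.8, 18.1, 19.7 and 5.90 CPM in HPC-1 (log2 fold change 3.44 and −0.43, adjusted p = 0.0396 and 0.778). Its call also ended on leaving out any of the HPC-1 libraries (adjusted p 0.0778 to 0.0938), with limma-voom (0.933) and in a fit of the 8 libraries alone (0.214).

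Genes known to mark long-term stem cells were higher almost without exception. Of 25 such genes, 24 were higher in LT-HSC and 0 lower, with a median log2 fold change of 3.42 against 0.06 over all genes tested. Without replicate 2 all 25 were higher (median 3.57 against 0.01). Their summed level was 4967, 2523, 5273 and 5107 in LT-HSC and 859.8, 695, 681 and 896 CPM in HPC-1. All 25 were lowest in replicate 2 among LT-HSC libraries. *Mecom*, a zinc finger regulator required for stem cell maintenance (ENSMUSG00000027684, mm10 chr3:29951296-30548008), stood at 299, 151, 313 and 308 in LT-HSC and 35.8, 11.1, 21.2 and 30.7 CPM in HPC-1. It was high in 3 LT-HSC libraries, intermediate in replicate 2 and low in HPC-1 (log2 fold change 3.43 ± 0.54 and 3.62 ± 0.56, adjusted p = 0.000237 and 0.000112). The endothelial protein C receptor gene *Procr* (ENSMUSG00000027611, mm10 chr2:155751117-155755471) stood at 70.6, 25, 47.4 and 54 in LT-HSC and 7.79, 6.26, 4.35 and 4.91 CPM in HPC-1, again with no overlap (log2 fold change 3.08 ± 0.55 and 3.30 ± 0.55, adjusted p = 0.000355 and 0.000128). *Vwf*, the gene of von Willebrand factor, which marks platelet-biased stem cells (ENSMUSG00000001930, mm10 chr6:125546774-125686679), stood at 279, 114, 648 and 654 in LT-HSC and 3.75, 0.696, 3.77 and 3.73 CPM in HPC-1. LT-HSC replicates 3 and 4 were highest and replicate 2 lowest of its group, yet far above HPC-1 (log2 fold change 7.09 ± 0.96 and 7.40 ± 0.93, adjusted p = 6.97e-05 and 2.03e-05).

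The guanine nucleotide exchange factor *Fgd5*, used as a stem cell reporter, stood at 168, 61.3, 162 and 163 in LT-HSC and 17.9, 19.1, 11.9 and 17.7 CPM in HPC-1 (log2 fold change 3.06 ± 0.45 and 3.30 ± 0.44, adjusted p = 0.000104 and 2.11e-05). *Hlf*, a transcription factor of immature cells, was higher (log2 fold change 2.04 ± 0.33 and 2.17 ± 0.35, adjusted p = 0.00025 and 0.000138). *Mmrn1*, which encodes a platelet adhesive protein, stood at 586, 287, 551 and 499 in LT-HSC and 26.8, 25, 12.2 and 13 CPM in HPC-1 (log2 fold change 4.65 ± 0.63 and 4.84 ± 0.65, adjusted p = 7.38e-05 and 3.43e-05). None of these 3 genes overlapped between the groups. Among the smaller differences of the list were those of the Hox cofactor *Meis1*, with 669.8, 403, 635 and 569 in LT-HSC and 256, 248, 199.6 and 249 CPM in HPC-1 (log2 fold change 1.26 ± 0.20 and 1.39 ± 0.20, adjusted p = 9.77e-05 and 1.74e-05), and of the guidance receptor *Robo4*, the only member not called with all libraries. *Robo4* stood at 50.7, 14.2, 54.8 and 52.5 in LT-HSC and 12.7, 12.2, 8.98 and 25.4 CPM in HPC-1. Replicate 2 lay within the HPC-1 range, and the log2 fold change of 1.53 (adjusted p = 0.0506) became 1.81 (adjusted p = 0.0122) without it. DESeq2 (0.0123), limma-voom (0.000571) and upper-quartile scaling (0.0462) called it with all libraries, as did other settings.

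Genes of megakaryocytes and platelets were raised in the same direction. Of 18 tested, 16 were higher and 0 lower (median log2 fold change 2.39), and 17 higher and 0 lower without replicate 2 (median 2.52). The sum was 1801, 1476, 2309 and 2472 in LT-HSC and 633, 484, 602 and 826 CPM in HPC-1. *Pf4*, the gene of platelet factor 4, stood at 26.6, 29.3, 79.5 and 65.7 in LT-HSC and 0.865, 0, 0 and 1.18 CPM in HPC-1, so that HPC-1 held almost no counts (log2 fold change 6.35 ± 0.99 and 6.53 ± 1.01, adjusted p = 0.000197 and 0.000114). *Itga2b*, which encodes the integrin CD41, stood at 180.5, 212, 300.4 and 359.7 in LT-HSC and 76.4, 69.6, 90.4 and 76.4 CPM in HPC-1, a smaller difference without overlap (log2 fold change 1.75 ± 0.30 and 1.84 ± 0.32, adjusted p = 0.000349 and 0.000278). *Ppbp*, the gene of pro-platelet basic protein, had no count in HPC-1 and 1.85, 0, 8.79 and 3.03 CPM in LT-HSC, which puts it at least 20.2-fold higher, or 23.4-fold without replicate 2, taking 3 counts over the 4 HPC-1 libraries as the floor (adjusted p = 0.00861 and 0.00297). Replicate 2 was at 0 as well, so the groups touched there. Not every platelet gene differed: *Selp*, the gene of P-selectin, overlapped widely, with 113, 64.7, 112 and 123 in LT-HSC and 85.9, 36.2, 76.5 and 120.5 CPM in HPC-1 (log2 fold change 0.37 ± 0.40 and 0.53 ± 0.43, adjusted p = 0.623 and 0.47). Intervals and floors given here cover counting error only.

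Homeobox genes of the Hoxa and Hoxb clusters were higher for 7 of 14 tested and lower for 0, and without replicate 2 for 9 and 0 (median log2 fold change 2.16 and 2.41). Fewer passed when HPC-1 replicate 3 was left out (4). *Hoxb5*, known as a marker of long-term stem cells, stood at 9.99, 6.91, 22.3 and 17.5 in LT-HSC and 2.88, 1.04, 0.290 and 0.590 CPM in HPC-1 (log2 fold change 3.56 ± 0.86 and 3.78 ± 0.88, adjusted p = 0.00451 and 0.0023). *Hoxb6* stood at 9.99, 2.16, 14.1 and 12.4 in LT-HSC and 1.44, 0, 0.579 and 0.393 CPM in HPC-1 (log2 fold change 3.93 ± 0.89 and 4.25 ± 0.89, adjusted p = 0.00226 and 0.000675). Neither gene overlapped between the groups. *Hoxb8* had no count in HPC-1 and 2.59, 2.59, 5.11 and 8.12 CPM in LT-HSC, at least 28-fold higher and at least 30.4-fold without replicate 2. *Hoxa9*, which acts broadly in stem and progenitor cells, overlapped at 87.7, 49.6, 65 and 86.5 in LT-HSC and 54.8, 81, 55.9 and 65.8 CPM in HPC-1 (log2 fold change 0.17 ± 0.23 and 0.31 ± 0.24, adjusted p = 0.712 and 0.442).

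Imprinted genes known from stem cells had the highest median of all lists apart from the neutrophil genes with all libraries. Of 14 tested, 9 were higher and 0 lower (median 3.98), with the same counts without replicate 2 (median 4.04). The sum was 473, 267, 383 and 425 in LT-HSC and 21, 36.2, 21.2 and 48.5 CPM in HPC-1. The maternally expressed noncoding RNA *Meg3* stood at 167, 35.8, 28.6 and 36.1 in LT-HSC and 0.865, 0, 2.32 and 1.57 CPM in HPC-1, LT-HSC replicate 1 being far above the others (log2 fold change 5.69 ± 1.04 and 5.89 ± 1.06, adjusted p = 0.000691 and 0.00044). *Dlk1*, its paternally expressed neighbour, stood at 12.9, 7.77, 3.89 and 3.99 in LT-HSC and 0, 0, 0.579 and 0.590 CPM in HPC-1 (log2 fold change 4.33 ± 1.03 and 4.29 ± 1.06, adjusted p = 0.00362 and 0.00382). The adaptor gene *Grb10* stood at 144, 99.7, 199 and 224 in LT-HSC and 7.21, 15.3, 10.4 and 20.6 CPM in HPC-1 (log2 fold change 3.62 ± 0.73 and 3.80 ± 0.75, adjusted p = 0.00173 and 0.00108). *Igf2r*, the receptor that clears insulin-like growth factor 2, was higher (log2 fold change 2.49 ± 0.42 and 2.52 ± 0.44, adjusted p = 0.00021 and 0.000186). No member named here overlapped between the groups.

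**Figure D2:**
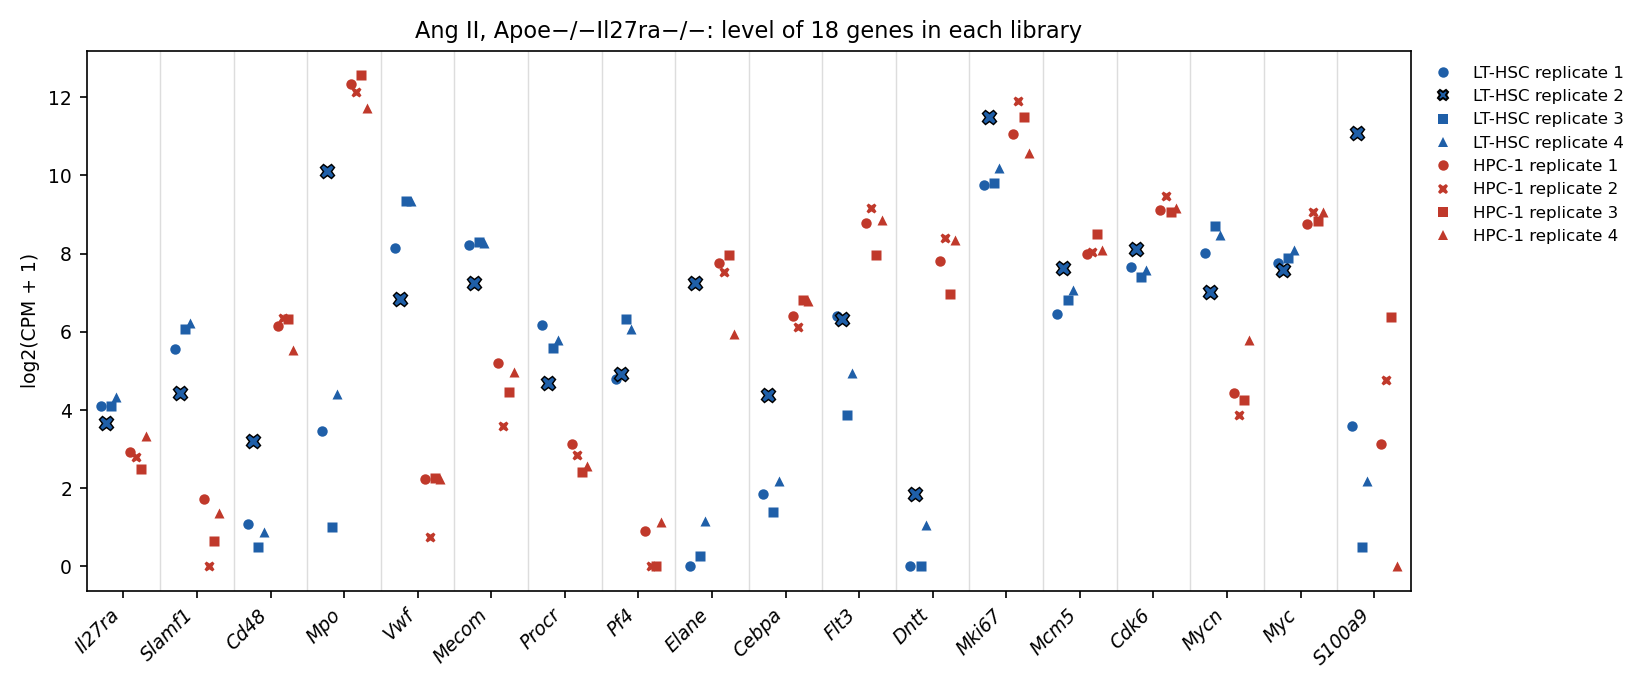
Level of 18 genes in each library as log2(CPM + 1), with blue symbols for LT-HSC and red symbols for HPC-1; LT-HSC replicate 2 is outlined in black. The stem cell genes *Vwf* and *Mecom* and the platelet gene *Pf4* separate both groups. Replicate 2 lies near or within HPC-1 for *Elane* and *Mki67* and far above both groups for *S100a9* at 2182 CPM.

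Of 20 genes of granulocyte and monocyte progenitors, 8 were lower and 0 higher with all libraries (median log2 fold change −2.14), and 18 lower and 0 higher without replicate 2 (median −5.41, or −5.19 with genes at 0 in LT-HSC set at their bound). Their sum was 549.6, 2906, 266 and 374 in LT-HSC and 8105, 6994, 9100.4 and 5743 CPM in HPC-1, and 18 of 20 were highest in replicate 2 among LT-HSC. *Cebpa*, the transcription factor that starts granulocyte commitment (ENSMUSG00000034957, mm10 chr7:35119293-35121928), stood at 2.59, 19.9, 1.64 and 3.58 in LT-HSC and 83.9, 69.2, 111 and 109 CPM in HPC-1. All LT-HSC libraries lay below HPC-1 (log2 fold change −3.92 ± 0.83 and −5.11 ± 0.91, adjusted p = 0.00263 and 0.00038). *Elane*, which encodes neutrophil elastase, stood at 0, 152, 0.204 and 1.24 in LT-HSC and 217, 183, 247 and 60.5 CPM in HPC-1. Replicate 2 lay within the HPC-1 range and the other LT-HSC libraries near 0, and the gene passed without it and not with it (log2 fold change −2.28 ± 1.12 and −8.03 ± 1.14, adjusted p = 0.201 and 6.77e-05). *Csf1r*, the receptor for macrophage colony-stimulating factor, stood at 1.48, 65.6, 1.23 and 2.20 in LT-HSC and 86.8, 65.4, 66.6 and 109 CPM in HPC-1, with the same arrangement (log2 fold change −2.34 ± 0.94 and −5.56 ± 0.93, adjusted p = 0.11 and 0.000211). With all libraries limma-voom called both genes (adjusted p = 0.00111 and 2.76e-05). *Cd34*, which encodes a surface sialomucin that marks progenitors and is low on long-term stem cells in the mouse, stood at 194, 189, 53.6 and 93.6 in LT-HSC and 728, 658, 697 and 566 CPM in HPC-1, without overlap (log2 fold change −2.33 ± 0.46 and −2.55 ± 0.52, adjusted p = 0.00142 and 0.00129).

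Of 18 lymphoid-primed genes, 6 were lower and 0 higher (median −1.82), and 8 and 0 without replicate 2 (median −3.54, or −2.94 with bounds). *Flt3*, the receptor tyrosine kinase that marks multipotent progenitors which have left the stem cell pool (ENSMUSG00000042817, mm10 chr5:147330741-147400489), stood at 83.6, 79.8, 13.7 and 29.6 in LT-HSC and 441, 573, 247 and 463 CPM in HPC-1. LT-HSC replicates 1 and 2, which held Y-linked counts, lay above 3 and 4, which held none. All lay below HPC-1 (log2 fold change −3.09 ± 0.71 and −3.38 ± 0.81, adjusted p = 0.00491 and 0.005). *Dntt*, the terminal transferase of early lymphoid cells (ENSMUSG00000025014, mm10 chr19:41029275-41059525), stood at 0, 2.59, 0 and 1.10 in LT-HSC and 225, 334, 125 and 324 CPM in HPC-1, near 0 in every LT-HSC library (log2 fold change −8.20 ± 1.30 and −8.84 ± 1.54, adjusted p = 0.00025 and 0.000355). *Satb1*, a chromatin organizer of lymphoid fate, stood at 31.8, 53.1, 7.97 and 12.5 in LT-HSC and 315, 381, 245 and 339.6 CPM in HPC-1 (log2 fold change −3.66 ± 0.68 and −4.26 ± 0.76, adjusted p = 0.000872 and 0.000398). The receptor *Notch1* differed less (log2 fold change −1.14 ± 0.25 and −1.18 ± 0.28, adjusted p = 0.00264 and 0.0039), and none of these genes overlapped between the groups.

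Genes of DNA replication licensing and synthesis were lower for 11 of 20 with all libraries and for 17 without replicate 2, with 0 higher in either fit (median log2 fold change −0.78 and −1.12). The sum was 1767, 3674, 2081 and 2286 in LT-HSC and 3895, 3957, 5410.5 and 3751 CPM in HPC-1. Leaving out other libraries gave 5, 6 and 6 calls without LT-HSC replicates 1, 3 and 4 and 5 without HPC-1 replicate 3. *Mcm5*, a subunit of the replicative helicase, stood at 86.9, 198, 111 and 134 in LT-HSC and 253, 264, 359 and 272 CPM in HPC-1 (log2 fold change −1.12 ± 0.27 and −1.37 ± 0.28, adjusted p = 0.00647 and 0.000966). *Cdc6*, which loads that helicase, stood at 25.2, 47.5, 30.7 and 27.5 in LT-HSC and 64.9, 70.3, 82.3 and 56 CPM in HPC-1 (log2 fold change −1.07 ± 0.25 and −1.29 ± 0.26, adjusted p = 0.00296 and 0.000481). Replicate 2 was the highest LT-HSC library for both, and neither gene overlapped between the groups. *Rrm1*, the large subunit of ribonucleotide reductase, stood at 136, 281, 152 and 143 in LT-HSC and 290.4, 337, 421 and 229 CPM in HPC-1. The hemimethylation reader *Uhrf1* had 91, 254, 127 and 175 in LT-HSC and 253, 269.6, 356 and 294 CPM in HPC-1. For both genes replicate 2 alone brought the groups into contact (log2 fold change −0.85 ± 0.23 and −1.15 ± 0.23, adjusted p = 0.0142 and 0.00038 for *Rrm1*, and log2 fold change −0.86 ± 0.27 and −1.16 ± 0.27, adjusted p = 0.0365 and 0.00342 for *Uhrf1*). The call of *Rrm1* ended without LT-HSC replicate 1, 3 or 4 or HPC-1 replicate 3 (adjusted p 0.0565 to 0.0832), that of *Uhrf1* without LT-HSC replicate 1, 3 or 4 or HPC-1 replicate 2, 3 or 4 (0.0567 to 0.145), and both in the fit of the 8 libraries alone (0.0659 and 0.0684).

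Of 23 mitotic genes, 11 were lower with all libraries and 21 without replicate 2, and 0 were higher in either fit (median −0.93 and −1.39). All 23 were highest in replicate 2 among LT-HSC, and the sum was 1908, 6074, 2209 and 2769 in LT-HSC and 5322, 7979, 7473 and 4074 CPM in HPC-1. Only 1 gene was called when LT-HSC replicate 1, 3 or 4 or HPC-1 replicate 2 or 3 was left out, 8 without HPC-1 replicate 1 and 14 without HPC-1 replicate 4. *Mki67*, the proliferation antigen (ENSMUSG00000031004, mm10 chr7:135689784-135716361), stood at 857, 2860.2, 896 and 1169 in LT-HSC and 2126, 3812, 2875 and 1532 CPM in HPC-1. Replicate 2 lay within the HPC-1 range, and the gene passed without it and not with it (log2 fold change −0.84 ± 0.36 and −1.41 ± 0.33, adjusted p = 0.134 and 0.00388). *Top2a*, the topoisomerase of dividing cells, stood at 287, 880.4, 319.8 and 399 in LT-HSC and 966, 1067, 1377 and 705 CPM in HPC-1 (log2 fold change −1.13 ± 0.33 and −1.62 ± 0.30, adjusted p = 0.023 and 0.000442). Its call with all libraries ended without LT-HSC replicate 1, 3 or 4 or HPC-1 replicate 2 or 3 (adjusted p 0.0557 to 0.102) and in the fit of the 8 libraries alone (0.0949). The mitotic cyclin *Ccnb2* stood at 23.3, 51.4, 29.2 and 28.8 in LT-HSC and 57.7, 63.3, 64.3 and 44.4 CPM in HPC-1 (log2 fold change −0.80 ± 0.25 and −1.07 ± 0.26, adjusted p = 0.0307 and 0.00325). That call ended without LT-HSC replicate 1, 3 or 4 or HPC-1 replicate 1, 2 or 3 (0.0572 to 0.146) and in the fit of the 8 libraries alone (0.0555). *Ube2c*, the ubiquitin-conjugating enzyme of the anaphase-promoting complex, stood at 7.77, 65.6, 23.3 and 24.6 in LT-HSC and 41.2, 67.5, 62.3 and 45 CPM in HPC-1 (log2 fold change −0.85 ± 0.38 and −1.50 ± 0.34, adjusted p = 0.15 and 0.00172). With all libraries limma-voom called *Mki67* and *Ube2c* (adjusted p = 0.00248 and 0.00144).

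The promoters of both lists were searched for letters known from cell cycle genes. RefSeq promoters of the GRCm38.p6 build, from 250 bases before to 50 bases after the transcript start, were found for 19 of 23 mitotic genes and 17 of 20 licensing genes (19 promoters). On both strands, the letters TTTGAA of the cell cycle homology region stood in 14 of 19 mitotic promoters (73.7%) and 2 of 19 licensing promoters (10.5%), against 17.9% of 32851 promoters in all. CCAAT, the box bound by NF-Y, stood in 17 of 19 (89.5%), 15 of 19 (78.9%) and 37.4%, and TTCCCGCC, an E2F site, in 0 of 19, 4 of 19 (21.1%) and 2.19%. Every mitotic promoter with TTTGAA also held CCAAT (73.7% against 6.95% of all promoters). A match is a description of letters, not a binding site. Below are the 250 bases before the start of *Ube2c* (chr2:164769679-164769928, plus strand) and *Ccnb2* (chr9:70421555-70421804, minus strand), which hold CCAAT and TTTGAA, and of *Rrm1* (chr7:102441445-102441694, plus strand), which holds CCAAT and TTCCCGCC. They are shown as examples of both arrangements and read 5′ to 3′ on the strand of the gene, with capitals where any of the letters searched stand on either strand.
Ube2c promoter: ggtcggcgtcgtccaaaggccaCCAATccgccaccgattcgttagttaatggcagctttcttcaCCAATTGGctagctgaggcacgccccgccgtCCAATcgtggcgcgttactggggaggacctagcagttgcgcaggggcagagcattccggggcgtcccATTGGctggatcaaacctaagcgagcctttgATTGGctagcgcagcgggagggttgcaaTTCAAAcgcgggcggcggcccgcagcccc
Ccnb2 promoter: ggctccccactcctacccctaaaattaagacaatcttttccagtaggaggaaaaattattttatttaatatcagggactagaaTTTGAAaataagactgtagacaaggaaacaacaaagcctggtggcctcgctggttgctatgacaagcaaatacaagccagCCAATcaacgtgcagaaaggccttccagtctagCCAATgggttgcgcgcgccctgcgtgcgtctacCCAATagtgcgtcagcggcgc
Rrm1 promoter: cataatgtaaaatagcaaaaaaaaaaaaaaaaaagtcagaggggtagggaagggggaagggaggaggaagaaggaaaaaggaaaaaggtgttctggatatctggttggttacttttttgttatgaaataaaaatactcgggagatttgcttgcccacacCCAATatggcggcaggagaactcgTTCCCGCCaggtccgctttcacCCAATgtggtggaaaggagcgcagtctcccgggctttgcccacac

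Among cyclins and kinases of the G1 phase, 1 of 14 was higher and 3 were lower, and 3 and 3 without replicate 2 (median −0.42 and −0.58). A count of 1 of 14 lies near the 7.04% of all genes tested that were higher. The lower count went to 1 without LT-HSC replicate 1 or 4 or HPC-1 replicate 3, and to 2 without LT-HSC replicate 3 or HPC-1 replicate 2. *Cdk6*, the kinase whose absence keeps stem cells out of cycle (ENSMUSG00000040274, mm10 chr5:3341485-3531008), stood at 202, 275, 169 and 191 in LT-HSC and 557, 707, 535 and 577 CPM in HPC-1, low in every LT-HSC library (log2 fold change −1.51 ± 0.26 and −1.67 ± 0.29, adjusted p = 0.000323 and 0.000186). *Ccnd3*, a D-type cyclin, stood at 104, 199, 179.7 and 188 in LT-HSC and 82.5, 117, 89.5 and 103 CPM in HPC-1. It was higher in LT-HSC although replicate 1 lay within the HPC-1 range (log2 fold change 0.78 ± 0.21 and 0.69 ± 0.22, adjusted p = 0.00985 and 0.0253). Of 18 cell cycle inhibitors and genes tied to quiescence, 7 were higher and 1 lower in either fit (median 1.08 and 0.99). *Cdkn1c*, which encodes the inhibitor p57, stood at 17.4, 9.50, 22.5 and 24.9 in LT-HSC and 0.865, 0, 0.290 and 1.38 CPM in HPC-1 (log2 fold change 4.69 ± 1.08 and 4.90 ± 1.12, adjusted p = 0.00408 and 0.00273). *Cdkn1a*, which encodes p21, went the other way at 0.740, 2.59, 1.43 and 2.62 in LT-HSC and 4.33, 9.39, 8.40 and 10.8 CPM in HPC-1 (log2 fold change −2.12 ± 0.71 and −2.28 ± 0.78, adjusted p = 0.0406 and 0.0402), a call that ended without LT-HSC replicate 1, 3 or 4 or HPC-1 replicate 2, 3 or 4 (adjusted p 0.0711 to 0.135).

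The immediate early gene *Egr1*, which restrains division of stem cells, stood at 449.7, 95, 108 and 102 in LT-HSC and 7.50, 9.04, 6.66 and 28.5 CPM in HPC-1. LT-HSC replicate 1 was far above its group and HPC-1 replicate 4 above its own, and the groups did not overlap (log2 fold change 3.82 ± 0.89 and 4.03 ± 0.92, adjusted p = 0.00547 and 0.00355). *Txnip*, an inhibitor of thioredoxin and glucose uptake, was higher (log2 fold change 1.83 ± 0.34 and 2.02 ± 0.35, adjusted p = 0.000872 and 0.00026). *Foxo3*, a transcription factor of stem cell maintenance, was level between the groups, with 274, 281, 276 and 304 in LT-HSC and 263, 301, 227 and 329 CPM in HPC-1 (log2 fold change 0.02 ± 0.16 and 0.02 ± 0.17, adjusted p = 0.977 and 0.974).

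In the pathway of the missing receptor, 4 of 18 genes were higher and 1 lower with all libraries, and 4 and 2 without replicate 2. The median was 0.31 and 0.28, against 0.06 and 0.01 over all genes tested. In either fit 15 of 18 had a positive fold change. Without HPC-1 replicate 3 the higher genes numbered 2. *Il6st*, the partner chain gp130 (ENSMUSG00000021756, mm10 chr13:112464070-112510086), stood at 87.7, 72.1, 103 and 101 in LT-HSC and 178, 182, 148 and 139 CPM in HPC-1, with all LT-HSC libraries below HPC-1 (log2 fold change −0.83 ± 0.16 and −0.73 ± 0.17, adjusted p = 0.000582 and 0.00236). The receptor subunits went opposite ways, *Il27ra* higher and *Il6st* lower in LT-HSC. The kinase gene *Jak2* stood at 147, 119, 156 and 161 in LT-HSC and 95.4, 83.1, 82.6 and 85.3 CPM in HPC-1 (log2 fold change 0.75 ± 0.19 and 0.84 ± 0.20, adjusted p = 0.00653 and 0.00274). *Socs2*, a suppressor of cytokine signalling that is itself a STAT target, stood at 28.5, 11.2, 31.5 and 28.1 in LT-HSC and 0.865, 0, 0.579 and 0.197 CPM in HPC-1. HPC-1 held very few counts, and replicate 2 was the lowest LT-HSC library (log2 fold change 5.82 ± 0.94 and 6.06 ± 0.95, adjusted p = 0.000132 and 5.19e-05).

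Of 21 receptors for hematopoietic growth factors, 4 were higher and 4 lower, and 4 and 9 without replicate 2 (median −0.26 and −0.58). *Tek*, the angiopoietin receptor that holds stem cells in the niche, stood at 82.5, 48.8, 81.2 and 79.2 in LT-HSC and 11.2, 4.87, 12.7 and 11.4 CPM in HPC-1 (log2 fold change 2.84 ± 0.58 and 2.99 ± 0.60, adjusted p = 0.00173 and 0.00116). *Tgfbr3*, a coreceptor for transforming growth factor beta, had 205, 120.4, 142 and 162 in LT-HSC and 22.8, 15.7, 31 and 21 CPM in HPC-1 (log2 fold change 2.79 ± 0.42 and 2.90 ± 0.44, adjusted p = 0.000119 and 8.93e-05). Both genes separated the groups without overlap. *Igf1r*, the insulin-like growth factor receptor, differed less (log2 fold change 0.74 ± 0.18 and 0.83 ± 0.19, adjusted p = 0.00469 and 0.00158). On the other side, *Il6ra*, which pairs with gp130 to bind interleukin-6, stood at 14.4, 40.1, 10.2 and 15.4 in LT-HSC and 74.1, 118, 49 and 73.5 CPM in HPC-1 (log2 fold change −2.01 ± 0.37 and −2.55 ± 0.35, adjusted p = 0.000428 and 1.28e-05). *Il3ra* stood at 0.370, 3.88, 3.27 and 3.03 in LT-HSC and 12.7, 2.43, 7.82 and 18.3 CPM in HPC-1, where HPC-1 replicate 2 fell within the LT-HSC range (log2 fold change −1.95 ± 0.59 and −2.13 ± 0.66, adjusted p = 0.0245 and 0.0206). Its call ended without LT-HSC replicate 1 or 4 or HPC-1 replicate 1 or 4 (adjusted p 0.0585 to 0.111) and in the fit of the 8 libraries alone (0.0642).

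Genes of the renin-angiotensin system were mostly at or near 0. Of 13, 10 were detected and 6 could be tested, and *Agt* and *Ren1* had no count in any of the 8 libraries. With all libraries 1 was higher and 0 lower, and without replicate 2 1 and 1 (median 1.39 and 0.34). *Anpep*, an aminopeptidase that degrades angiotensin peptides, stood at 14.1, 6.47, 16.4 and 16.4 in LT-HSC and 1.44, 1.39, 1.45 and 3.34 CPM in HPC-1 (log2 fold change 2.76 ± 0.66 and 2.98 ± 0.68, adjusted p = 0.00391 and 0.00177). *Agtr1a*, the receptor through which Ang II acts, had few counts everywhere, with 2.96, 3.88, 2.45 and 1.79 in LT-HSC and 0.288, 0, 0.290 and 0.590 CPM in HPC-1. The groups did not overlap, yet the gene did not pass the test (log2 fold change 3.02 ± 1.41 and 2.83 ± 1.49, adjusted p = 0.171 and 0.224). It did so in limma-voom (adjusted p = 0.00936).

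Interferon-induced genes were higher for 5 of 24 and lower for 3, and for 4 and 3 without replicate 2. The median was 0.15 and 0.11, against 0.06 and 0.01 over all genes tested. The higher count went to 2 without LT-HSC replicate 4 or HPC-1 replicate 2, 3 or 4 and to 1 without HPC-1 replicate 1, and the lower count to 1 without LT-HSC replicate 4 or HPC-1 replicate 4. *Iigp1*, an immunity-related GTPase, stood at 35.1, 21.6, 35.4 and 43.5 in LT-HSC and 7.21, 10.1, 3.48 and 13.2 CPM in HPC-1 (log2 fold change 1.99 ± 0.50 and 2.15 ± 0.53, adjusted p = 0.00837 and 0.00498). The guanylate-binding protein gene *Gbp3*, which has close paralogs that may share reads, stood at 41.1, 41.9, 39.7 and 49.7 in LT-HSC and 122, 69.9, 134 and 114 CPM in HPC-1 (log2 fold change −1.35 ± 0.26 and −1.34 ± 0.29, adjusted p = 0.000474 and 0.00113). *Rsad2*, the antiviral protein viperin, stood at 25.2, 76.8, 26.8 and 38.6 in LT-HSC and 8.07, 24.7, 10.4 and 18.5 CPM in HPC-1. Replicate 2 was its highest library and the call ended without it (log2 fold change 1.43 ± 0.48 and 0.98 ± 0.47, adjusted p = 0.0451 and 0.175), as it did without LT-HSC replicate 4 or HPC-1 replicate 1, 3 or 4 (adjusted p 0.0625 to 0.142) and with a Y-linked covariate (0.0505).

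Adhesion and homing receptors were divided, with 11 of 20 higher and 3 lower, and 11 and 5 without replicate 2 (median 1.17 and 1.16). The higher count was 7 without HPC-1 replicate 3, and the lower count 1 without LT-HSC replicate 1, 3 or 4 or HPC-1 replicate 1, 2 or 3. *Jam2*, a junctional adhesion molecule, was higher (log2 fold change 3.40 ± 0.62 and 3.64 ± 0.62, adjusted p = 0.000355 and 0.000114). *Itga4*, the integrin chain that binds VCAM-1, was lower by a small difference without overlap (log2 fold change −0.54 ± 0.14 and −0.58 ± 0.15, adjusted p = 0.00581 and 0.0053). *Cxcr4*, the receptor for the marrow chemokine SDF-1, stood at 29.2, 77.3, 44.4 and 32.8 in LT-HSC and 83.3, 103, 77.4 and 86.3 CPM in HPC-1. Replicate 2 was closest to HPC-1, and the gene passed without it and not with it (log2 fold change −0.94 ± 0.38 and −1.30 ± 0.39, adjusted p = 0.106 and 0.0223). With all libraries it was called by limma-voom (adjusted p = 0.000863) and in the fit of the 8 libraries alone (0.0488).

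Of 16 efflux pumps and detoxifying enzymes, 5 were higher and 0 lower, and 5 and 1 without replicate 2 (median 0.83 and 0.64), while 3 were higher when LT-HSC replicate 1 or 3 or HPC-1 replicate 2, 3 or 4 was left out. *Aldh1a1*, an aldehyde dehydrogenase, stood at 145, 93.2, 158 and 158 in LT-HSC and 8.65, 9.74, 1.45 and 7.27 CPM in HPC-1 (log2 fold change 4.35 ± 0.59 and 4.50 ± 0.61, adjusted p = 6.56e-05 and 3.35e-05). *Abcg2*, the pump behind dye efflux from stem cells, stood at 77.7, 59.6, 71.6 and 63.2 in LT-HSC and 24.5, 34.8, 26.7 and 30.9 CPM in HPC-1 (log2 fold change 1.22 ± 0.25 and 1.28 ± 0.26, adjusted p = 0.000805 and 0.000566). Both genes were free of overlap. Of 15 glycolysis genes, 1 was higher and 4 lower, and 1 and 6 without replicate 2 (median −0.18 and −0.23), with 1 lower when LT-HSC replicate 1 or 4 or HPC-1 replicate 2 or 3 was left out and 2 without LT-HSC replicate 3, and 0 higher without LT-HSC replicate 4 or HPC-1 replicate 2 or 3. *Pgam1*, phosphoglycerate mutase, which has pseudogenes that may share reads, stood at 71.4, 123, 61.3 and 50.1 in LT-HSC and 216, 261, 255 and 196 CPM in HPC-1 (log2 fold change −1.61 ± 0.29 and −1.93 ± 0.29, adjusted p = 0.000368 and 3.66e-05).

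Within the Myc network, 2 of 14 genes were higher and 3 lower, and 1 and 5 without replicate 2 (median −0.32 and −0.28), with 3 higher without HPC-1 replicate 4 and 2 lower without HPC-1 replicate 3. The paralogs *Myc* and *Mycn* went opposite ways. *Mycn* (ENSMUSG00000037169, mm10 chr12:12936093-12941914) stood at 256, 128, 419 and 358 in LT-HSC and 20.8, 13.6, 18.3 and 54.2 CPM in HPC-1, with HPC-1 replicate 4 the highest of its group and still below every LT-HSC library (log2 fold change 3.42 ± 0.56 and 3.66 ± 0.56, adjusted p = 0.000271 and 9.95e-05). *Myc* (ENSMUSG00000022346, mm10 chr15:61985391-61990374) stood at 216, 192, 237 and 271 in LT-HSC and 428, 538, 452 and 536 CPM in HPC-1, all LT-HSC libraries lying below HPC-1 (log2 fold change −1.09 ± 0.26 and −1.02 ± 0.29, adjusted p = 0.00491 and 0.0144). *Ncl*, nucleolin of ribosome production, stood at 1920.3, 2609, 1750.0 and 2017 in LT-HSC and 3534, 3658, 5333 and 2883 CPM in HPC-1 (log2 fold change −0.89 ± 0.23 and −1.02 ± 0.26, adjusted p = 0.0105 and 0.00604). The call ended without HPC-1 replicate 3 (adjusted p = 0.07).

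Other methods gave other counts. Over all 18013 genes tested, limma-voom called 2788 higher and 2502 lower, DESeq2 1731 and 990, and upper-quartile scaling 1373 and 851. The counts of lists are to be read beside these. As higher and lower, limma-voom called 0 and 19 granulocyte and monocyte progenitor genes, 0 and 12 lymphoid-primed, 0 and 19 licensing and 0 and 22 mitotic genes, 3 and 7 of the G1 phase, 8 and 2 of quiescence, 8 and 2 of the receptor pathway, 12 and 0 homeobox genes, 5 and 11 growth factor receptors, 2 and 1 of the renin-angiotensin system, 12 and 5 adhesion receptors, 9 and 2 efflux, 2 and 7 glycolysis and 1 and 6 Myc network genes. For mature cells it called 3 and 1 of red cells, 0 and 1 of neutrophils, 2 and 3 of monocytes, 0 and 4 of eosinophils, 1 and 1 of T and NK cells, 3 and 2 of stroma and 2 and 0 of gut. DESeq2 gave 3 higher genes of the G1 phase, 3 of glycolysis, 3 of stroma and 1 of T and NK cells, and 2 lower of eosinophils, and upper-quartile scaling 2 higher of the G1 phase. Without HPC-1 replicate 4, 2 red cell and 2 monocyte genes were higher and 1 renin-angiotensin gene lower. Among eosinophil genes 1 was higher without LT-HSC replicate 4 and 2 lower without HPC-1 replicate 2.

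**Figure D3:**
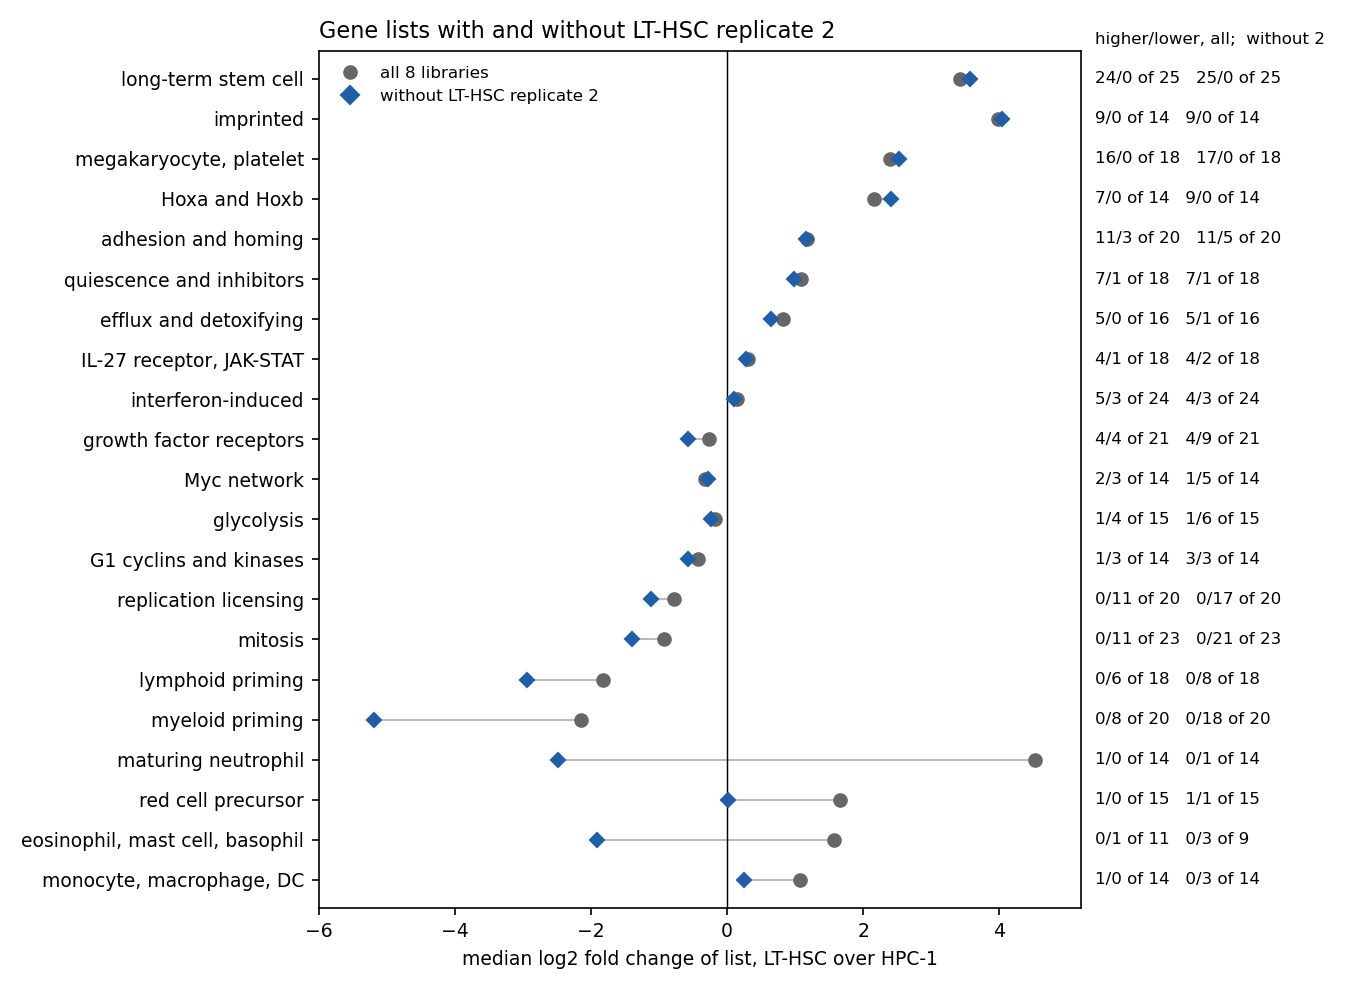
Median log2 fold change of 21 gene lists, LT-HSC over HPC-1, with all libraries (circles) and without LT-HSC replicate 2 (diamonds), genes at 0 in a group being set at their bound; the figures at the right count members higher and lower of those tested. Lists of long-term stem cell and megakaryocyte genes barely move, whereas neutrophil genes move from 4.52 to −2.48 and myeloid genes from −2.14 to −5.19.

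Neutrophil, eosinophil and B lineage genes, and genes of the lineage proteins that the sort removed, depended on replicate 2 for the direction of their median. Of 14 neutrophil genes, 1 was higher and 0 lower (median 4.52), and 0 and 1 without replicate 2 (median −2.96, or −2.48 with bounds). Of all genes tested 7.04% were higher and 5.48% lower, and 7.87% and 8.02% without replicate 2. A count of 1 in this list or in that of monocytes lies near that share. *Lyz2*, lysozyme of myeloid cells, was the gene called with all libraries, at 106, 1655, 116 and 103 in LT-HSC and 111, 92.5, 139 and 78.4 CPM in HPC-1 (log2 fold change 2.23 ± 0.63 and 0.04 ± 0.26, adjusted p = 0.0196 and 0.964). The call also ended without HPC-1 replicate 2 or 4 (adjusted p 0.0523 to 0.0557), with limma-voom (0.544) and in the fit of the 8 libraries alone (0.218). *Cxcr2*, a neutrophil chemokine receptor, stood at 0, 101, 0.613 and 0 in LT-HSC and 17, 18.1, 13.6 and 7.07 CPM in HPC-1. Outside replicate 2 LT-HSC had 3 counts, and HPC-1 over LT-HSC gave a ratio of 64.6 (95% exact counting interval 21.8 to 316; adjusted p = 0.000481, and 0.735 with all libraries). Monocyte, macrophage and dendritic cell genes had 1 higher and 0 lower of 14 (median 1.07), and 0 and 3 without replicate 2 (median 0.25). *F13a1*, a transglutaminase chain of monocytes, stood at 7.03, 270.2, 1.23 and 0.826 in LT-HSC and 356, 279, 255 and 161 CPM in HPC-1. The monocyte chemokine receptor *Ccr2* had 0.370, 142, 1.43 and 0.275 in LT-HSC and 71.8, 80.3, 86.3 and 31.6 CPM in HPC-1. Both passed without replicate 2 and not with it (log2 fold change −1.96 ± 1.10 and −6.76 ± 1.10, adjusted p = 0.278 and 0.0002 for *F13a1*, and log2 fold change −0.97 ± 1.08 and −6.55 ± 1.08, adjusted p = 0.639 and 0.000211 for *Ccr2*). With all libraries limma-voom called *Cxcr2*, *F13a1* and *Ccr2* as lower (adjusted p = 0.000488, 8.32e-05 and 0.000336). *H2-Eb1*, a class II antigen-presenting chain, stood at 1.85, 6.91, 3.48 and 1.79 in LT-HSC and 0, 0, 0.290 and 0.983 CPM in HPC-1 (log2 fold change 3.11 ± 0.94 and 2.59 ± 0.97, adjusted p = 0.0235 and 0.0626). That call ended without replicate 2 or HPC-1 replicate 1, 2 or 3 (adjusted p 0.0725 to 0.074 for the latter).

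Red cell precursor genes had 1 higher and 0 lower of 15 (median 1.66), and 1 and 1 without replicate 2 (median 0.02). Of all genes tested 7.04% were higher and 5.48% lower, and 7.87% and 8.02% without replicate 2, so these counts lie near that share. The higher gene was the carbonic anhydrase *Car2*, which is also known from stem cells, at 331, 394, 535 and 494 in LT-HSC and 130.0, 148, 121 and 155 CPM in HPC-1 (log2 fold change 1.66 ± 0.32 and 1.71 ± 0.34, adjusted p = 0.00095 and 0.00108). The transferrin receptor *Tfrc*, which takes up iron in dividing cells, stood at 44, 187, 59.5 and 42.5 in LT-HSC and 132, 154, 202 and 128 CPM in HPC-1 and passed without replicate 2 and not with it (log2 fold change −0.90 ± 0.37 and −1.66 ± 0.28, adjusted p = 0.112 and 0.000102). With all libraries limma-voom called it too (adjusted p = 2.82e-05). Genes of eosinophils, mast cells and basophils had 0 higher and 1 lower of 11, and 0 and 3 of 9 without replicate 2 (median 1.57 and −1.91). The mast cell carboxypeptidase *Cpa3* stood at 1.85, 14.7, 2.04 and 1.79 in LT-HSC and 30, 35.5, 51 and 19.1 CPM in HPC-1, lower in LT-HSC in both fits (log2 fold change −2.89 ± 0.73 and −4.13 ± 0.74, adjusted p = 0.00908 and 0.000326).

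Of 4 B lineage genes tested, 1 was lower and 0 higher, and 2 and 0 without replicate 2 (median 0.18 and −3.32). *Ighm*, the mu heavy chain, stood at 4.07, 40.1, 2.66 and 0.275 in LT-HSC and 175, 153, 101 and 208 CPM in HPC-1 (log2 fold change −3.95 ± 1.19 and −6.33 ± 1.40, adjusted p = 0.0289 and 0.0028). The call with all libraries ended without LT-HSC replicate 1, 3 or 4 or HPC-1 replicate 2 (adjusted p 0.0505 to 0.0961) and in the fit of the 8 libraries alone (0.079). *Igkc* stood at 0, 88.5, 0.818 and 0 in LT-HSC and 6.34, 3.83, 15.1 and 29.9 CPM in HPC-1 and was lower only without replicate 2 (log2 fold change 0.63 ± 1.36 and −5.49 ± 1.64, adjusted p = 0.84 and 0.0228). Of 5 T and NK genes, 1 was lower and 0 higher, and 1 and 1 without replicate 2 (median −0.43 and −1.69, or −0.43 and −0.41 with bounds). The lower gene *Nkg7*, of cytotoxic granules, stood at 6.66, 16.8, 3.89 and 3.17 in LT-HSC and 29.1, 34.1, 42 and 20.4 CPM in HPC-1 (log2 fold change −2.12 ± 0.64 and −2.83 ± 0.68, adjusted p = 0.0266 and 0.00399). Its call with all libraries ended without LT-HSC replicate 1, 3 or 4 or HPC-1 replicate 2 or 3 (adjusted p 0.0618 to 0.111).

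Marrow stroma and endothelium had 1 higher and 1 lower of 10 genes, and 2 and 1 without replicate 2 (median 1.41 and 1.39, or 0.91 and 0.55 with bounds), with 2 higher also without HPC-1 replicate 2. Of all genes tested 7.04% were higher and 5.48% lower, and 7.87% and 8.02% without replicate 2. A count of 1 in this list or in that of intestinal epithelium lies near that share. *Kdr*, the receptor for vascular endothelial growth factor, stood at 25.9, 3.02, 27 and 33.7 in LT-HSC and 0, 0, 0.579 and 0.786 CPM in HPC-1 (log2 fold change 5.75 ± 1.29 and 6.10 ± 1.26, adjusted p = 0.00402 and 0.00144), replicate 2 being the lowest of its group. *Pdgfrb*, a platelet-derived growth factor receptor, stood at 26.6, 19.4, 8.79 and 11.7 in LT-HSC and 112, 112, 91 and 90.6 CPM in HPC-1 (log2 fold change −2.65 ± 0.52 and −2.74 ± 0.59, adjusted p = 0.0013 and 0.00218). *Adipoq* and *Bglap*, of fat cells and bone-forming cells, were at 0 in all 8 libraries. Intestinal epithelium, as a tissue foreign to marrow, had 1 higher and 0 lower of 10 genes with counts in either fit. That gene was *Krt18*, a keratin also made by other cells, at 91.4, 61.3, 82.6 and 95.7 in LT-HSC and 29.1, 23.3, 27.8 and 31.4 CPM in HPC-1 (log2 fold change 1.57 ± 0.29 and 1.68 ± 0.30, adjusted p = 0.000355 and 0.000161), and *Muc2* and *Clca4b* were at 0 in all 8.

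Of all genes, 832 higher and 685 lower genes passed in both fits, did not overlap between the groups and averaged at least 10 CPM in the higher group. The genes named next by smallest p or largest difference were taken from these. Their lack of overlap and their passing in both fits were therefore set by the choice. Among the 15 higher genes with the smallest p was *Cttn*, the actin-binding protein cortactin (ENSMUSG00000031078, mm10 chr7:144435733-144471009). It stood at 80.3, 72.9, 84.2 and 92.3 in LT-HSC and 27.1, 18.1, 20.9 and 19.1 CPM in HPC-1, without overlap (log2 fold change 1.95 ± 0.26 and 2.01 ± 0.27, adjusted p = 2.55e-05 and 9.25e-06). *Arhgef12*, a guanine nucleotide exchange factor, stood at 228, 124, 198 and 229 in LT-HSC and 16.7, 19.8, 13.3 and 20.6 CPM in HPC-1 (log2 fold change 3.46 ± 0.41 and 3.63 ± 0.42, adjusted p = 2.55e-05 and 1.28e-05). *Mylk*, myosin light chain kinase, had 54, 21.1, 61.5 and 57.4 in LT-HSC and 5.48, 3.83, 12.7 and 6.29 CPM in HPC-1 (log2 fold change 2.77 ± 0.39 and 3.01 ± 0.38, adjusted p = 2.81e-05 and 3.89e-06). Replicate 2 was the lowest LT-HSC library for each of these genes. The angiopoietin receptor relative *Tie1* was higher (log2 fold change 2.35 ± 0.30 and 2.54 ± 0.30, adjusted p = 2.55e-05 and 3.89e-06). *Sgms1*, a sphingomyelin synthase, was higher (log2 fold change 1.91 ± 0.27 and 2.04 ± 0.28, adjusted p = 4.73e-05 and 1.45e-05). *Cavin2*, which coats caveolae, stood at 81, 57.4, 178 and 161 in LT-HSC and 0, 0, 0.290 and 0.590 CPM in HPC-1 and combined a small p with a large difference (log2 fold change 8.65 ± 1.12 and 8.87 ± 1.13, adjusted p = 4.77e-05 and 2.09e-05). Others were *Kcnk5*, a potassium channel, *Tuba8*, an alpha-tubulin, *Pdzk1ip1*, a small membrane protein, *Srgap3*, a GTPase-activating protein for Rac, *Pitpnm1*, a phosphatidylinositol transfer protein, *Ttc39b*, the collagen gene *Col16a1* and *Med12l* of the Mediator complex, with log2 fold changes of 1.78 to 3.51 (adjusted p 2.55e-05 to 4.73e-05) and the same direction in every library of each group.

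The largest differences were those of genes almost silent in HPC-1. *Sytl5*, a synaptotagmin-like effector of Rab27, and *Ccdc136* were at 0 in HPC-1, with 20.3, 8.63, 18.6 and 17.6 CPM and 16.6, 6.04, 19 and 20.2 CPM in LT-HSC, at least 84.9-fold and 86.4-fold higher (at least 91.5-fold and 95.2-fold without replicate 2). Adjusted p for both genes was 0.000102 and 9.77e-05. With 1 to 3 counts in HPC-1, the angiomotin relative *Amotl2* gave a ratio of 343 (95% exact counting interval 94.6 to 2840), the adhesion molecule *Ncam2* 353 (95% exact counting interval 63 to 14000), the transporter *Abcg3* 253 (95% exact counting interval 86.4 to 1230) and the vesicular glutamate transporter *Slc17a8* 217 (95% exact counting interval 59.7 to 1790), each free of overlap (adjusted p 0.000104 to 0.00166).

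Among the 15 lower genes with the smallest p was *Ggta1*, a galactosyltransferase (ENSMUSG00000035778, mm10 chr2:35400179-35463231). It stood at 32.2, 39.7, 17.4 and 20.8 in LT-HSC and 122, 93.9, 112 and 82.9 CPM in HPC-1 (log2 fold change −1.92 ± 0.26 and −2.15 ± 0.27, adjusted p = 2.55e-05 and 3.89e-06). *Pecam1*, the adhesion molecule CD31 (ENSMUSG00000020717, mm10 chr11:106654217-106750628), stood at 67.7, 66.5, 72.4 and 72 in LT-HSC and 199.5, 162, 183 and 187 CPM in HPC-1, within a narrow range in each group (log2 fold change −1.39 ± 0.21 and −1.37 ± 0.23, adjusted p = 4.73e-05 and 6.35e-05). *Igfbp4*, a binding protein for insulin-like growth factors, was lower (log2 fold change −1.90 ± 0.26 and −1.98 ± 0.30, adjusted p = 4.73e-05 and 5.42e-05). *Cd93*, a C-type lectin of immature cells, was lower (log2 fold change −1.03 ± 0.17 and −1.0 ± 0.18, adjusted p = 9.77e-05 and 0.000162). *Il10rb*, a chain shared by receptors of the interleukin-10 family, was lower as well (log2 fold change −1.40 ± 0.23 and −1.59 ± 0.25, adjusted p = 0.000132 and 3.35e-05). In all 5 genes every LT-HSC library, replicate 2 included, lay below every HPC-1 library, as the choice of genes required. The other 10 were *Parp8*, the endosomal exchanger *Slc9a9*, *Zbed4*, the lymphoid transcription factor *Pou2f2*, the adhesion receptor *Adgrg3*, *Sh2d5*, the innate immune regulator *Nlrc3*, the glycosyltransferase *B3gnt5*, the amino acid transporter *Slc38a1* and the calponin *Cnn3*, with log2 fold changes of −4.17 to −0.81 and adjusted p of 3.09e-05 to 0.000158.

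The largest lower differences besides that of *Dntt* were in genes low in LT-HSC replicates 1, 3 and 4. *Kcng1*, a potassium channel subunit, stood at 0, 0.863, 0 and 0 in LT-HSC and 40.1, 37.2, 37.7 and 37.9 CPM in HPC-1, a ratio of HPC-1 over LT-HSC of 328 (95% exact counting interval 90.5 to 2720) from 2 counts in LT-HSC, both in replicate 2, and at least 189-fold lower without it. *Chdh*, choline dehydrogenase, stood at 2.96, 18.1, 0 and 0.275 in LT-HSC and 169, 269, 210.4 and 111 CPM in HPC-1 (log2 fold change −5.52 ± 1.08 and −7.97 ± 1.27, adjusted p = 0.00137 and 0.000151). *Tespa1*, a signalling adaptor of thymocytes, had 2.96, 8.20, 0.204 and 0.826 in LT-HSC and 89.7, 87, 81.7 and 75.7 CPM in HPC-1 (log2 fold change −5.11 ± 0.90 and −6.24 ± 1.03, adjusted p = 0.000546 and 0.000205). *Rab44*, a large Rab GTPase of granulocytes and mast cells, stood at 1.11, 50.1, 0.818 and 1.65 in LT-HSC and 355, 443, 329 and 418 CPM in HPC-1 (log2 fold change −5.05 ± 1.04 and −8.23 ± 1.11, adjusted p = 0.00208 and 3.54e-05). Its call with all libraries ended in the fit of the 8 libraries alone (adjusted p = 0.0578). Replicate 2 was the highest LT-HSC library for each of these genes and for the remaining 3, *Drc7*, of the axonemal dynein regulatory complex, *Bpifc* and *Bex6*. *Bpifc* gave a ratio of 59.6 (95% exact counting interval 20 to 292) with all libraries and 155 (95% exact counting interval 27.4 to 6150) without replicate 2. *Drc7* had a log2 fold change of −6.09 with all libraries and a ratio of 116 (95% exact counting interval 39.3 to 564) without it. *Bex6* had log2 fold changes of −5.43 and −6.81 (adjusted p = 0.000861, 0.000296 and 0.00021 with all libraries).

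Set beside the other genotypes given Ang II, the cell type difference was called for 2676 genes in *Apoe*-/-*Il27ra*+/- mice (14.9% of those tested) and for 1868 in mice with intact *Il27ra* (10.4%), comparisons that share no library with the one described. In common with the 2257 calls in *Apoe*-/-*Il27ra*-/- mice were 1587 of the former, or 70.3% of the calls here and 59.3% of those there, and 940 of the latter (41.6% and 50.3%) in the same direction, while 0 and 3 were called in opposite directions. Tested directly as an interaction, the difference between *Apoe*-/-*Il27ra*-/- and *Apoe*-/-*Il27ra*+/- mice was called for 0 genes by edgeR (0.0%), with 529 at an unadjusted p under 0.05, and for 0 by DESeq2 and 0 by limma-voom.

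Against intact *Il27ra* the interaction was called for 9 genes, all higher (0.05% of those tested), with 66 by DESeq2 (5 lower), 3 by limma-voom (2 lower), 1 in a fit of the compared libraries alone, and 11 without replicate 2. The 5 with the smallest adjusted p, 0.0114 to 0.0125, shared an arrangement, with both LT-HSC libraries of intact mice at 0 to 1.99 CPM. *Lysmd3*, a membrane protein with a LysM domain, stood at 23.7, 20.3, 20.9 and 18.9 in LT-HSC and 22.5, 17.4, 21.2 and 13.8 CPM in HPC-1 in *Apoe*-/-*Il27ra*-/- mice. In intact mice it had 1.93 and 1.99 CPM in LT-HSC and 21.3, 13 and 42 CPM in HPC-1 (log2 difference of differences 3.83). *Sc5d*, a desaturase of cholesterol synthesis, stood at 30.3, 17.3, 18.8 and 19.3 in LT-HSC and 12.7, 2.78, 10.4 and 7.07 CPM in HPC-1 in *Apoe*-/-*Il27ra*-/- mice. The intact levels were 0.963 and 0.995 and 10.8, 13.3 and 12.6 CPM (4.96). *Gm26617*, the gene with the identifier ENSMUSG00000079437 and *Mterf1a*, of mitochondrial transcription, had no count in either intact LT-HSC library and 13 to 17.4, 6.29 to 16 and 5.07 to 27.7 CPM in intact HPC-1. These calls rest on 2 libraries of the intact genotype. The fit of the compared libraries alone ended the calls of *Lysmd3* (0.133), ENSMUSG00000079437 (0.18), *Sc5d* (0.133) and *Mterf1a* (0.282), and limma-voom those of *Lysmd3* (0.403), *Gm26617* (0.0786), *Sc5d* (0.217) and *Mterf1a* (0.0629), all adjusted p.

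In *Apoe*-/-*Il27ra*-/- mice given PBS, 159 genes were called between LT-HSC and HPC-1 (0.883%), against 447 by DESeq2 and 2646 by limma-voom. Of the 159, 157 were shared with the calls under Ang II, or 6.96% of the calls here and 98.7% of those there. The PBS group has an LT-HSC library that stands apart too, its replicate 2, in which *Slamf1* stood at 2.36 CPM against 45.8 and 44 CPM in replicates 1 and 3. Without that library 1164 genes were called (6.48% of 17956), 994 of them shared (44% and 85.4%). The interaction of cell type with agent was called for 0 genes by edgeR (0.0%), with 424 at an unadjusted p under 0.05, and for 0 by DESeq2 and 0 by limma-voom. Leaving out both LT-HSC replicates 2 gave 1 call, *Rab44*, named after its value was seen. A cell type difference past the threshold under Ang II and not under PBS is therefore not shown to differ between the agents.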

How the data were processed

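RNA from 5000 sorted cells was made into total RNA libraries with a stranded kit for low input. The authors deposited a table of expected counts per gene by RSEM, which holds whole numbers only, for 38887 genes and 36 libraries aligned to mm10. The submitters' processing notes name Bowtie2, RSEM 1.2.31 and DESeq2. Totals ranged from 1980283 to 6861078 counts, with a median of 3139364, so that 3 counts in 1 library equal 0.437 to 1.51 CPM. Where a group is at 0, its floor is 3 counts over all its libraries.

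From these counts, edgeR 4.0.16 (R 4.3.3) was fitted by the quasi-likelihood method with robust estimation, TMM factors and the tool's filter on low counts, over all 36 libraries in 12 groups, with no covariate. P-values were adjusted by Benjamini-Hochberg over all genes tested. The fit was repeated without LT-HSC replicate 2. Alternatives were DESeq2 1.42.0, limma-voom with sample weights (limma 3.58.1), upper-quartile scaling, no robust estimation, 2 other filters, a Y-linked covariate, a replicate block, the compared libraries alone, and each replicate left out in turn. Genes were named from 30 lists by role, and by a rule that took, in each direction, the 15 genes with the smallest p and the 8 with the largest fold change among those that passed in both fits, averaged at least 10 CPM in the higher group and did not overlap, with up to 5 per direction for each interaction. Not all genes so taken are named. Members and lists were chosen with earlier results of these data known, and some genes stand in more than 1 list. The 13 protein-coding genes of mitochondrial DNA listed had no entry among the genes used here. Positions are those of the GENCODE annotation of mm10. Genes with near-identical copies are uncertain because counting may split their reads.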

Additional observations from a re-analysis of the deposited data

Results flagged for a closer look

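In 270 groups of 4 libraries, 1 for each named gene and for the total count in each cell type, 39 had a highest or lowest library that was far from the nearest of the others relative to the range of the group. For independent normal values chance gives this in about 1 in 20 groups, but these genes were chosen with results known and vary together, so that this is no test. LT-HSC replicate 2 was that library in 30, the other LT-HSC libraries in 2 and an HPC-1 library in 7.

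LT-HSC replicate 2 was far above the rest of its group, in CPM, for *Cd48* 8.20, *Mpo* 1109.6, *Itgam* 313, *S100a9* 2182, *Ngp* 2114, *Lyz2* 1655, *Cxcr2* 101, *Hbb-bs* 711, *Tfrc* 187, *Prg2* 285, *Cpa3* 14.7, *Ccr2* 142, *F13a1* 270.2, *Ighm* 40.1, *Igkc* 88.5, *Elane* 152, *Csf1r* 65.6, *Cebpa* 19.9, *Rrm1* 281, *Mki67* 2860.2, *Chdh* 18.1, *Bex6* 3.88, *Rab44* 50.1 and *Fn1* 573. It was far below them for *Socs2* 11.2, *Fgd5* 61.3, *Mecom* 151, *Robo4* 14.2 and *Tek* 48.8. What the library contains besides LT-HSC was not tested.

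Other libraries far above their group were HPC-1 replicate 2 for *Prg2* (12.5 CPM), LT-HSC replicate 1 for *Egr1* (449.7 CPM), LT-HSC replicate 1 for *Meg3* (167 CPM), HPC-1 replicate 4 for *Egr1* (28.5 CPM) and HPC-1 replicate 4 for *Anpep* (3.34 CPM). Those far below were HPC-1 replicate 2 for *Vwf* (0.696 CPM), HPC-1 replicate 3 for *Meis1* (199.6 CPM) and HPC-1 replicate 4 for *Parp8* (187 CPM). The remaining values, 0.863 CPM of *Kcng1* in LT-HSC replicate 2 and 0.288 CPM of *Ncam2* in HPC-1 replicate 1, are 2 counts and 1 count and too few to set a library apart.

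The interaction of cell type with genotype, between mice lacking *Il27ra* and mice with intact *Il27ra*, was called for 9 genes, of which the 5 with the smallest adjusted p are given. Each of these 5 calls ended with limma-voom or in a fit of the compared libraries alone. The log2 difference of differences was 3.83 for *Lysmd3* and 4.96 for *Sc5d*. For *Gm26617*, ENSMUSG00000079437 and *Mterf1a* the fitted values of 8.82, 8.78 and 8.69 depend on the prior count and are no measure of size, since both LT-HSC libraries of intact mice were at 0.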

How the results depend on the processing

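Of 111 named genes called with all libraries, 95 were called under every planned setting that tested them and 16 were not, as given with each. Of the 95, *Ppbp*, *Hoxb8* and *Hoxb6* were not tested under all. Of the called genes, 1 changed direction, *Fn1*, which became −0.43 without LT-HSC replicate 2 and −0.41 with the 8 libraries alone and without it, and was 3.89 at most with a library left out. The count of 2257 calls ranged over 1270 to 2858 when a library was left out, was 5290 with limma-voom and, with the 8 libraries alone and without replicate 2, an alternative chosen after seeing the data, 3689. The cause was not tested.

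Under *Il27ra* heterozygosity the interaction gave 111 calls without a filter on low counts and 0 under every other setting. Against intact *Il27ra* it gave 66 with DESeq2, 192 without a filter (41 lower), 15 with a mean of at least 10 counts, 3 with limma-voom, 1 with the compared libraries alone, 6 to 11 with 1 of the 8 libraries left out, 13 without LT-HSC replicate 2 of the PBS group, and 15 without both LT-HSC replicates 2, which was also chosen after seeing the data. Against PBS it gave 100 without a filter and 1 without both replicates 2.

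In 8 named genes that were not called, the direction changed. Without LT-HSC replicate 2 the log2 fold change became −2.48 for *Itgam*, −2.64 for *S100a9*, −2.31 for *Ngp*, −5.85 for *Cxcr2*, −0.26 for *Hbb-bs*, −0.51 for *Prg2* and −5.49 for *Igkc*, and with the 8 libraries alone and without it −2.47, −2.64, −2.28, −5.87, −0.24, −0.49 and −5.51 in this order. With limma-voom it was −2.3 for *Itgam*, −1.04 for *S100a9*, −4.7 for *Cxcr2* and −4.18 for *Igkc*. The highest value with a library left out was 1.21, 5.68, 5.99, 1.32, 2.86, 6.41 and 1.37 in the former order. *Foxo3* gave 0.1 at most, −0.01 without HPC-1 replicate 1 and −0.07 without HPC-1 replicate 3. Among genes of all lists, 2 changed sign with upper-quartile scaling, 3 with DESeq2 and 39 with limma-voom, none of them called by edgeR with all libraries. Without a filter on low counts 14 named genes more passed, and without robust estimation *Ngp* (0.0466) and *Robo4* (0.0381).

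The labels do not say whether the same replicate number marks the same mouse in LT-HSC and HPC-1. Deviations of libraries with the same number correlated across genes with r of 0.13, 0.07, −0.20 and 0.28. By this measure 2 of 4 LT-HSC libraries correlated best with their own number. So few libraries, with LT-HSC replicate 2 deviant, cannot decide whether the numbers pair them. For number 3 the summed Y-linked level was 0 in LT-HSC and 222 CPM in HPC-1. With the number as a replicate block (residual df 11) the count was 2595 and the interaction with intact *Il27ra* gave 5. The block turned *Itgam* to −1.45, *Cxcr2* to −3.19 and *Igkc* to −3.3, and ended the calls of *Ighm* (adjusted p = 0.0524), *Il3ra* (0.0618), *Lyz2* (0.478), *Fn1* (0.608) and of 4 interaction genes (0.0535 to 0.137). It added calls of *Elane* (0.0422), *Mki67* (0.00164), *Ube2c* (0.0197), *Tfrc* (0.0296), *F13a1* (0.0464) and *Cxcr4* (0.0123).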

Other observations

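The labels give no gender, and Y-linked transcripts were uneven among the libraries. *Ddx3y*, a Y-linked RNA helicase, stood at 91.7, 68.6, 0 and 0 in LT-HSC and 91.7, 95.7, 75 and 0 CPM in HPC-1. LT-HSC replicates 3 and 4 and HPC-1 replicate 4 held none of it. Summed over 4 Y-linked genes the level was 278, 199, 0 and 0 in LT-HSC and 271, 247, 222 and 0 CPM in HPC-1. With Y-linked expression as a covariate, 1311 genes were higher and 1163 lower in LT-HSC, and 2160 of the 2257 calls made without it were kept. Among LT-HSC, replicates 1 and 2 lay above replicates 3 and 4 for *Flt3*, *Cd34* and *Satb1*, and below them for *Vwf*, *Pf4*, *Itga2b* and *Hoxb5*. Each of these genes stayed called with the covariate. Replicates 3 and 4, without Y-linked counts, also had the larger totals, and replicate 2 was high in genes of mature cells. These features cannot be told apart here and were not tested.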
